A study of Mus musculus with 66 samples.

Results

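The genes described here build and drive the transport tracks of the cell: kinesins, dyneins and myosins, the tubulins and the gamma-tubulin ring complex, the machinery that nucleates and trims actin filaments, and the trains and cargo adaptors of cilia. They were chosen by symbol alone, as every probe with a single gene symbol that began with Kif, Myo, Ift or Bbs and a digit, or with Dync, Dnah, Dctn, Tuba, Tubb, Tubg, Arpc, Actr, Diaph, Capz or Cfl. This gave 45 genes, measured by 50 probes, of the 4209 genes with a single symbol and the 8448 probes on the filter. The rule used no measured value and no filter on signal, so all 45 genes are followed below. They fall into 13 kinesins, 8 genes of cytoplasmic dynein and its partner dynactin, 7 of intraflagellar transport and the BBSome, 7 of actin nucleation and filament turnover, 4 myosins, 4 of tubulin and the gamma-tubulin complex, 1 axonemal dynein heavy chain (Dnah1) and 1 other actin-related protein (Actr6). No alpha-tubulin gene met the rule here, and Tubb5 was the only beta-tubulin.

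The tissue was cerebellum of C57BL/6 mice, 1 mouse per array and 66 arrays in all, with both sexes in every group. Ad libitum (AL) mice had free access to regular feed until they were killed, at 17 to 21 days (5 mice), 33 to 44 days (5 mice), 6 months (169 to 194 days, 10 mice), 16 months (476 to 499 days, 10 mice) or 24 months (704 to 743 days, 9 mice). Calorically restricted (CR) mice had regular feed to 13 weeks of age, then fortified feed that was stepped down within a fortnight to 60% and stayed there, and were killed at 6 months (174 to 194 days, 9 mice), 16 months (472 to 499 days, 10 mice) or 24 months (673 to 743 days, 8 mice). The 3 restricted males of the oldest cohort were all 673 days old, against 719 to 743 days for the 4 AL males, so in males of that cohort diet and a gap in age cannot be told apart.

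The values are Z scores that the authors computed for each array: an array's probes have mean 0 and SD 1, so a value of 1 is 1 SD above the average probe of that array. A difference in Z units is not a fold change, and a shift of all probes together leaves no trace. A probe's brightness also depends on its cDNA clone, so levels below place a probe among the spots of the filter and do not order transcripts by abundance. Some arrays had a median correlation with the other arrays under 0.9 (0.695, 0.701 and 0.820, against at least 0.921 for the rest), and these 3 were left out: replicate 2 of the restricted males at 16 months, replicate 2 of the restricted females at 16 months and replicate 2 of the restricted females at 24 months. The results below use 63 arrays, which left 8 restricted mice at 16 months and 7 at 24 months.

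Kinesins and dyneins walk along microtubules, most kinesins towards the growing end, as at the tip of an axon, and cytoplasmic dynein, with dynactin, back towards the cell body. In a cilium, kinesin-2 carries intraflagellar transport trains outwards, a dynein brings them back, and the BBSome links membrane cargo to them. In the cerebellum this transport serves the long parallel fibres of granule cells and the dendrites of Purkinje cells, where myosin Va draws endoplasmic reticulum into the spines, while primary cilia receive the Hedgehog signal that drives the division of granule cell precursors after birth.

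The microtubule motors covered a wide range of signal. Of the 13 kinesins, 7 had a mean Z score above 0. The brightest probes were those for Kif16b, a kinesin of early endosomes (mean Z score 1.28 ± 0.156, SD, n = 63), Kif28 (0.880 ± 0.211) and Kif22, a kinesin that binds chromosomes in mitosis (0.758 ± 0.114). The dimmest of all 45 genes was Kif4, the other chromosome-binding kinesin, at -2.22 ± 0.464, which lay at percentile 1.43 of all 7782 features. (A feature is a gene with its probes averaged, or a probe that has no symbol or several.) Kif4 also had the widest scatter between mice of one group (within-group SD 0.474), followed by the spindle motor Kif11 (0.408) and the microtubule depolymerase Kif2a (0.400), against a median of 0.160 over the members and 0.167 over all features. Both motor subunits of heterotrimeric kinesin-2, the outward motor of the cilium, were above 0, Kif3a at 0.475 ± 0.112 and Kif3b at 0.165 ± 0.114. The axonal vesicle and mitochondrion carrier Kif1b read -0.853 ± 0.214.

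Within the dynein and dynactin machine, 6 of 8 probes were above 0, and the ends of the range were both subunits of dynactin. Dctn2, the p50 dynamitin subunit, was the brightest of all members (2.07 ± 0.132, n = 63, percentile 98.5), and Dctn1, the p150 subunit that grips the microtubule, was the lowest of its class (-0.897 ± 0.186). The light intermediate chains lay apart, Dync1li1 at 1.10 ± 0.179 and Dync1li2 at -0.320 ± 0.223, while the heavy chain Dync1h1 read 0.199 ± 0.120. The axonemal dynein heavy chain Dnah1, a motor of beating cilia, was at -0.164 ± 0.173.

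Among the ciliary transport genes, the BBSome subunit Bbs7 (1.76 ± 0.0954), the small GTPase of the train Ift27 (1.45 ± 0.153) and Ift122 of the retrograde complex (0.887 ± 0.244) were brightest, and Ift20, which also works at the Golgi, was lowest (-1.06 ± 0.152). All 4 tubulin-related probes but that for gamma-tubulin itself were bright: Tubgcp5 read 1.87 ± 0.131, Tubgcp2 1.31 ± 0.197 and Tubb5 0.733 ± 0.146, whereas Tubg1 read -0.890 ± 0.133. In the actin class 6 of 7 were above 0, led by the capping protein subunit Capza2 (1.59 ± 0.163) and the formins Diaph1 (1.19 ± 0.156) and Diaph3 (0.849 ± 0.149), with the Arp2/3 subunit Arpc1a lowest at -0.168 ± 0.307. The myosins Myo9a (1.40 ± 0.178), Myo5a (0.880 ± 0.155) and Myo1e (0.726 ± 0.159) were above 0, and Myo5b, a motor of recycling endosomes, was below it (-0.527 ± 0.141). Actr6, a part of a chromatin remodelling complex rather than of the cytoskeleton, read -0.593 ± 0.175. In all, 29 of the 45 genes (64.4%) had a mean above 0, against 48.7% of all features.

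**Figure D1:**
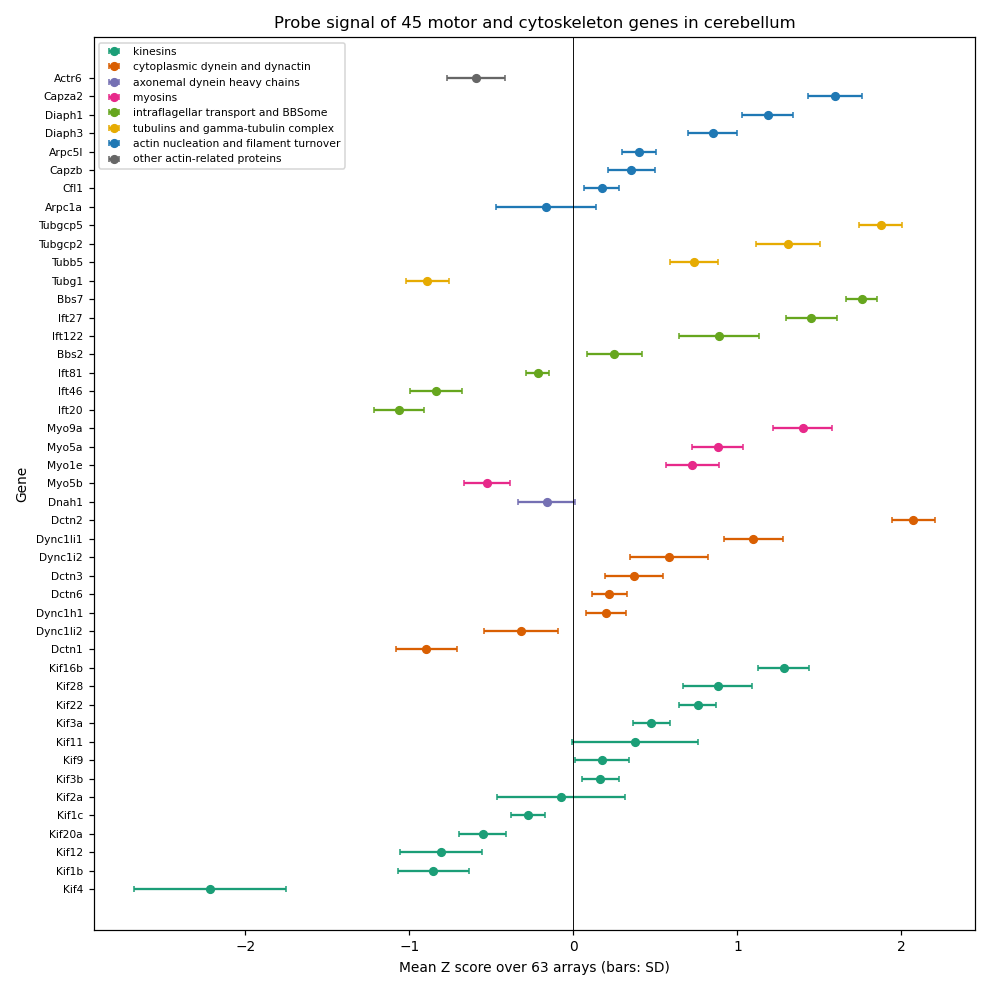
Mean Z score of each of the 45 genes (x axis) over 63 arrays, with bars for the SD between arrays, coloured by class and ordered by mean within it. Dctn2 stands at the top of the scale at 2.07 and Kif4 at the bottom at -2.22, with the widest bar.

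The names stand for probes as the platform annotates them, and these could be tested against each other in 4 genes. The pair of probes for the dynein intermediate chain Dync1i2 moved together over the 63 arrays (Pearson r = 0.715, means 0.703 and 0.462). The probes of the other 3 genes did not show this: r was -0.022 for Ift81 (means 0.0652 and -0.50), 0.061 for Myo5b (means -0.654 and -0.400), and between 0.120 and 0.252 for the 3 pairs among the probes of Kif3a (means 0.380, 0.296 and 0.748). Over all 561 genes with several probes, the mean Z scores of 842 probe pairs correlated at r = 0.108. The arrays of a pair are the same and hold 5 array sets, so these are descriptions. The annotation may name some probes wrongly, but the cause of these low correlations was not tested. For a gene with 1 probe a level or difference is that of the probe that carries its name, which could not be checked.

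Promoter sequence gives a view of these genes that the arrays did not enter. Of the 45 genes, 34 had a promoter in the RefSeq table (GRCm38.p6, 250 bases before to 50 after the gene start). A pair of motifs was searched on both strands, chosen for what these classes are known for. The X-box, an imperfect palindrome bound by RFX factors at genes of cilia, occurred in 1.29% of all 32851 promoters and in those of 3 of the 34 members (8.82%): Bbs7, Dctn3 and Kif9, a kinesin of motile cilia. The CHR element TTTGAA, known from genes switched on in mitosis, occurred in 17.9% of all promoters and in those of 5 of the 34 members (14.7%), a share near that of all promoters: Kif4, Kif11, Kif22, Dctn1 and Actr6. The background shares count promoters, whereas the members' shares count genes with a match in any of their promoters. Genes with several promoters have more chances, so the shares are not like for like, and no excess was tested. Each window below has 30 bases in the direction of the gene, with the match in capitals (TTCAAA where the element lies on the other strand). They lie at chr3:36613489-36613518 (minus strand) for Bbs7, chr4:41723284-41723313 (minus) for Dctn3, chr9:110476959-110476988 (plus) for Kif9, chrX:100626072-100626101 (plus) for Kif4, chr19:37376351-37376380 (plus) for Kif11 and chr7:127042618-127042647 (minus) for Kif22. They show the X-box matches, of which that of Dctn3 lies at a dynactin gene, and the CHR matches of the mitotic kinesins. The CHR matches of Dctn1 and Actr6 are left out, and the windows were picked after the matches were known. A match is a description and not a site of binding.
Bbs7: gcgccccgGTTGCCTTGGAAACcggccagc
Dctn3: cccagaacGTTACCTAGGTAACcagattgc
Kif9: ggcttcctGTTGCCATGGCGACtgtgtaca
Kif4: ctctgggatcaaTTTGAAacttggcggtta
Kif11: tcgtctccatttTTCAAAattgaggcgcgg
Kif22: ccaacctggcaaTTCAAAagcctgaaagtg
Kif4, Kif11 and Kif22 read -2.22, 0.377 and 0.758 in mean on the filter, and Bbs7, Dctn3 and Kif9 read 1.76, 0.367 and 0.174.

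More of the variation of these genes followed the array number than age and diet. The array numbers run in 5 sets, and the labels do not say what sets them apart. Differences between sets held a median of 22.4% of a member's sum of squares over the 63 arrays (20.7% over all features), on 4 of 62 degrees of freedom, or 6.45%. Differences between the 8 age and diet groups held a median of 9.36% (9.90% over all features), on 7 of 62 degrees of freedom, or 11.3%. The set held the larger share in 35 of 45 members, as in 78% of all features. It was largest in Tubb5, where it held 60.0%: the mean Z score was 0.694, 0.526, 0.719, 0.801 and 0.885 in sets 1 to 5. Kif1b (53.2%) ran from -1.06 in set 1 to -0.664 in set 4, and Kif9 (47.3%) from -0.022 in set 2 to 0.328 in set 5. Kif2a (43.6%) ran from -0.437 in set 2 to 0.208 in set 3. The within-group SDs given above include such differences between sets. Age and diet held most in Dctn6, a subunit at the pointed end of dynactin (28.1%), in Tubgcp2 (26.8%) and in Dctn1 (25.3%).

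**Figure D2:**
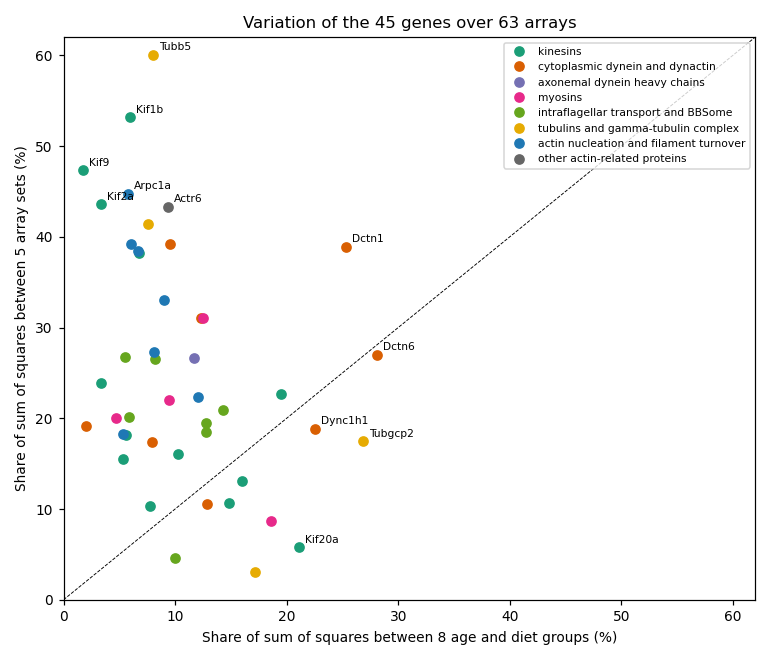
Share of each gene's sum of squares over 63 arrays that lies between the 8 age and diet groups (x axis, %) and between the 5 array sets (y axis, %), 1 point per gene, with a dashed line where the shares are equal. 35 of the 45 genes lie above the line, with Tubb5 highest at 60.0%.

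No member passed an adjusted p under 0.05 in any of the 12 comparisons (limma, two-sided, Benjamini-Hochberg over all 7782 features). The filter as a whole gave 0 features (0%) in each of the 10 adult comparisons, 24 (0.308%) for 33 to 44 against 17 to 21 days and 32 (0.411%) for 6 months against 17 to 21 days. The members' differences were small beside the usual error of the filter. Their median size was between 0.0313 and 0.0593 Z units in the 10 adult comparisons. Over all features, the median unadjusted 95% interval there reached from 0.149 to 0.228 Z units to either side. The adjusted test asks for more, so larger shifts could be missed too: Kif20a, at 0.238 in restricted mice, did not pass. Genes named from here on did not pass, and most were at an unadjusted p under 0.05.

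**Figure D3:**
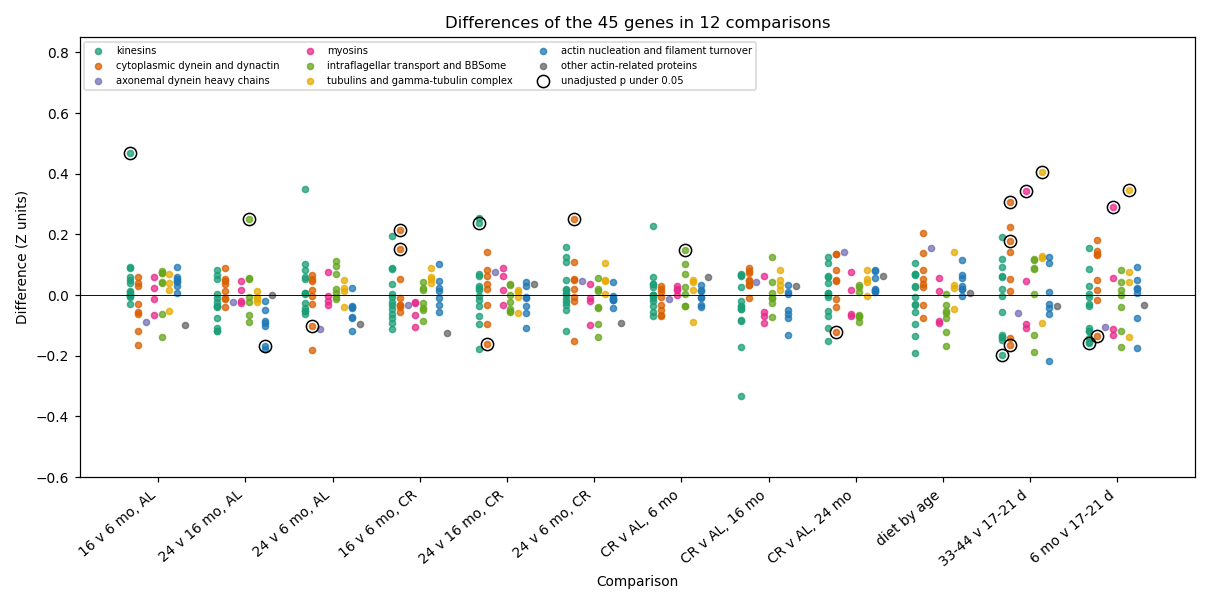
Difference of each of the 45 genes (y axis, Z units) in 12 comparisons (x axis), coloured by class, with rings around those at an unadjusted p under 0.05. Adult differences gather near 0 apart from the widely scattered Kif4 at 0.47, and the juvenile comparisons spread widest.

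With age in AL mice, between 6 and 16 months, 1 of 45 members reached an unadjusted p under 0.05 (1.34% of all features did). This was Kif4, which ranged from -3.07 to -2.01 (median -2.31) in 10 mice at 6 months and from -2.88 to -0.82 (median -1.89) in 10 mice at 16 months. The groups overlapped, and the difference was 0.467 ± 0.202 Z units (SE; limma adjusted p = 1.00), or 0.347 without replicate 1 of the 16-month males. None of the members met the first criteria of the study: a Z-ratio (the difference divided by the SD of all differences) of at least 1.5 in size, a mean Z score above 0 and an unadjusted p under 0.05, here from limma (0.116% of all features did). A later step of the study's selection, an analysis over age, sex and diet together, was not applied. The classes of 4 or more members had 1 sign throughout in 8 of 72 pairs of class and comparison, 3 of them in the actin class, which is described for that, and the others among the 4 myosins (2) and the 4 tubulin-related genes (3). All 7 genes of the actin class were higher at 16 months by 0.007 to 0.091, with a median of 0.047 against 0.001 over all features. That median became -0.00325 without replicate 2 of the 6-month females.

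Between 16 and 24 months in AL mice all 7 genes of the actin class were lower, by 0.0205 to 0.179 Z units, with a median of -0.0915 against -0.00225 over all features. The comparison shares its 16-month mice with the one before. The median lay between -0.117 and -0.068 over the omissions of single mice. Between mice of one group, the median level of the class had an SD of 0.126. In every comparison the 7 genes share their arrays, so a common sign is not 7 independent readings. The largest difference in the class was in Arpc1a (-0.179 ± 0.136, SE), and the one with the least error in proportion was in Diaph1, a formin that elongates unbranched filaments. Diaph1 ranged from 1.11 to 1.63 (median 1.25) in 10 mice at 16 months and from 0.83 to 1.33 (median 1.12) in 9 mice at 24 months. The older mice reached lower but overlapped with the younger, and the difference was -0.167 ± 0.0727 (limma adjusted p = 1.00). It was -0.119 without replicate 1 of the 24-month males and -0.115 with array weights. Without replicate 1 of the 16-month males, which read 1.63, Diaph1 was not at an unadjusted p under 0.05. Over all 8 age and diet groups Diaph1 ran between 1.10 and 1.28 in mean, with the 16-month AL mice highest and the 24-month AL mice lowest.

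In the same comparison Ift122, part of the complex needed for the return of ciliary trains, ranged from -0.23 to 1.04 (median 0.890) at 16 months and from 0.82 to 1.25 (median 1.00) at 24 months. Its difference was 0.249 ± 0.110 (limma adjusted p = 1.00). A single 16-month mouse, replicate 5 of the females, set the low end at -0.23, and without it the difference was 0.146. Diaph1 and Ift122 were the 2 of 45 members at an unadjusted p under 0.05, beside 3.92% of all features, and the 2 that met the first criteria of the study, beside 0.771%. The interneuron marker Kit was also lower at 24 months (-0.103 ± 0.0495), and so was the erythroid gene Alas2, 1 of 3 erythrocyte markers measured (-0.191 ± 0.0824), which had been higher at 16 than at 6 months (0.228 ± 0.0799). In restricted mice Alas2 was lower at 24 than at 16 months (-0.223 ± 0.0930) and than at 6 months (-0.209 ± 0.0909). The part of these markers in the members' differences was not tested, and in whole tissue fewer cells of a type and less RNA per cell cannot be told apart.

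From 6 to 24 months in AL mice only Dctn6 reached an unadjusted p under 0.05, 1 of 45 members beside 2.49% of all features, and 0 members met the first criteria of the study (0.475%). It ranged from 0.07 to 0.36 (median 0.280) in 10 mice at 6 months and from 0.03 to 0.25 (median 0.170) in 9 mice at 24 months, a difference of -0.101 ± 0.0487 (limma adjusted p = 1.00). With the position correction of the filter the difference was -0.0494. Read over the AL groups from youngest to oldest, its means were 0.380, 0.236, 0.256, 0.193 and 0.154. Neighbouring adult groups overlapped.

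In restricted mice the members at an unadjusted p under 0.05 were Dctn1 and Dync1h1 of the dynein and dynactin machine and the kinesin Kif20a, which had the smallest p. Between 6 and 16 months 2 of 45 members were at an unadjusted p under 0.05 (2.13% of all features): Dctn1 and Dync1h1. Dctn1 ranged from -1.22 to -0.62 (median -1.05) in 9 mice at 6 months, from -0.99 to -0.52 (median -0.830) in 8 mice at 16 months and from -1 to -0.52 (median -0.680) in 7 mice at 24 months. Its difference was 0.214 ± 0.0865 at 16 against 6 months and 0.252 ± 0.0902 at 24 against 6 months (limma adjusted p = 1.00 in both), and the groups overlapped. Dctn1 was the 1 member of 45 at an unadjusted p under 0.05 in the second of these comparisons (1.12% of all features). The differences lay between 0.170 and 0.276 and between 0.210 and 0.314 over the omissions of single mice. With all 66 arrays and position correction they were 0.132 and 0.183. Array sets held 38.9% of the sum of squares of Dctn1. In AL mice the means of Dctn1 were -0.936, -0.878 and -0.889 at the same ages.

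Dync1h1, the motor subunit itself, ranged from -0.03 to 0.25 (median 0.160) at 6 months, from 0.06 to 0.44 (median 0.305) at 16 months and from -0.12 to 0.33 (median 0.140) at 24 months in restricted mice. It was higher at 16 than at 6 months by 0.152 ± 0.0566, and the difference at 24 against 16 months was -0.160 ± 0.0605 (limma adjusted p = 1.00 in both). The 3 arrays left out all lay in array set 2, so the restricted mice used at 16 months had none from it. Those at 6 and 24 months had some. Dync1h1 had its lowest mean in that set (0.097, against 0.179 to 0.253 in the others). Age and array set cannot be fully told apart in the restricted comparisons with 16 months. These values depended on the 2 arrays left out at 16 months, where Dync1h1 read -2.62 and -2.64. With all 66 arrays the differences were -0.433 and 0.413, so both turned direction. The probes at position 8 of the runs of 22 into which the filter's probe numbers fall had a mean of -2.70 and -2.69 on those arrays, and Kif1c, Kif11 and 1 of the probes of Dync1i2 lie at that position too. Kif1c and Kif11 gave the same readings as Dync1h1, and the Dync1i2 probe -3.18 and -2.64, whereas its partner at position 13 read 0.78 and 0.93. Dync1h1 was the 1 member that met the first criteria of the study in each of these 2 comparisons, beside 0.45% and 0.424% of all features, and 0 members did at 24 against 6 months (0.09%).

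Between 16 and 24 months in restricted mice 2 of 45 members were at an unadjusted p under 0.05 (2.51% of all features), Dync1h1 and Kif20a. Kif20a, a kinesin of the last step of cell division, ranged from -0.92 to -0.49 (median -0.595) in 8 mice at 16 months and from -0.60 to 0.05 (median -0.410) in 7 mice at 24 months. The older mice were mostly higher, with overlap, and the difference was 0.238 ± 0.0742 (limma adjusted p = 0.999), or 0.166 without replicate 5 of the 24-month females, which read 0.05. Its probe lay below the average spot in 6 of those 7 mice.

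**Figure D4:**
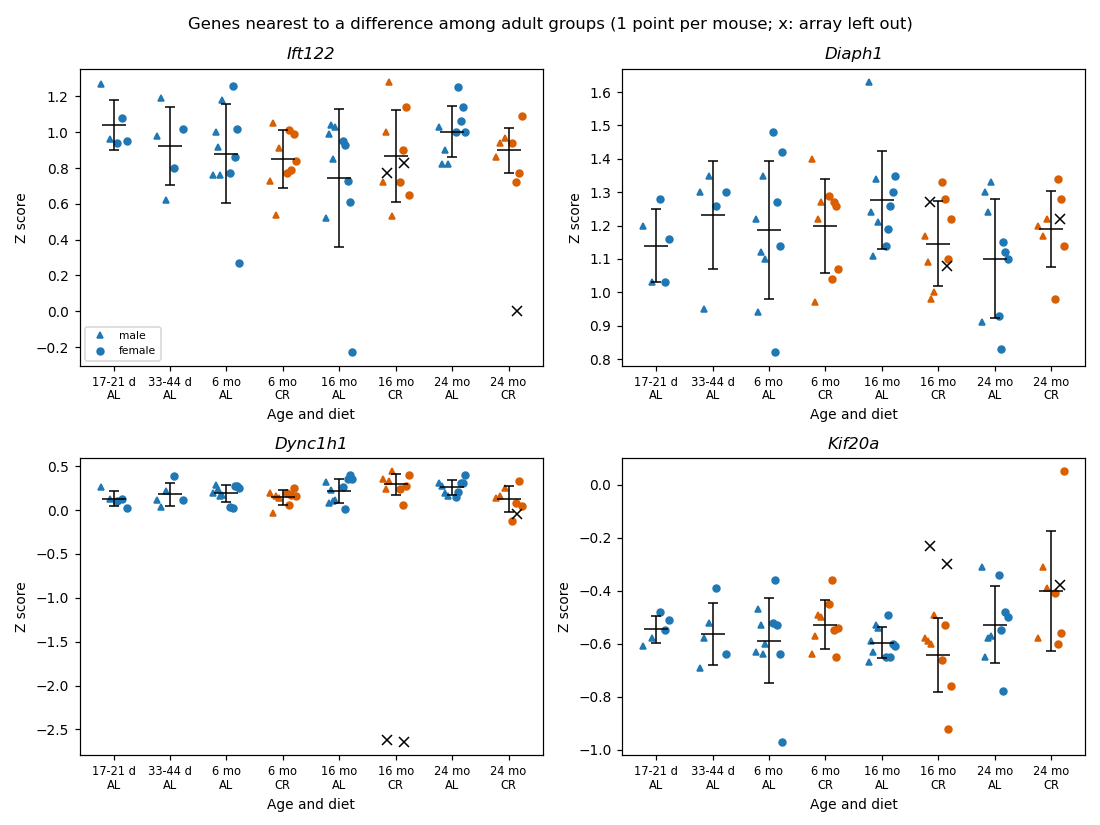
Z score (y axis) of Ift122, Diaph1, Dync1h1 and Kif20a in each mouse by age and diet (x axis; AL ad libitum in blue, CR restricted in orange; triangles male, circles female), with the mean and SD of each group and black crosses for the 3 arrays left out. The groups overlap in each gene, and the crosses of Dync1h1 at 16 months stand at -2.62 and -2.64.

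Restricted and AL mice of the same age differed little. At 6 months 1 of 45 members was at an unadjusted p under 0.05 (0.655% of all features): Ift20 ranged from -1.28 to -0.86 (median -1.14) in 10 AL mice and from -1.21 to -0.76 (median -0.940) in 9 restricted mice, a difference of 0.149 ± 0.0725 (limma adjusted p = 1.00). Ift81, another subunit of the outward train with group means between -0.251 and -0.180, was higher by 0.071 ± 0.0375 at that age, by 0.113 in one of its probes and by 0.029 in the other. At 16 months it was 0 of 45 (2.13%). The widest value there was Kif4 at -0.332, with AL mice between -2.88 and -0.82 and restricted mice between -2.53 and -1.64. At 24 months it was 1 of 45 (2.25%), Dync1h1, which ranged from 0.15 to 0.40 (median 0.280) in 9 AL mice and from -0.12 to 0.33 (median 0.140) in 7 restricted mice, a difference of -0.123 ± 0.0591 (limma adjusted p = 0.999). Kif3a, with group means between 0.420 and 0.587, was higher in restricted mice by 0.106 ± 0.0553, with its 3 probes at 0.00267, 0.189 and 0.126. All 7 genes of the actin class were higher in restricted mice at 24 months, by 0.01 to 0.0837 with a median of 0.0216 against 0.00492 over all features. This comparison shares the 24-month AL mice with those above, and the median was -0.00433 without replicate 1 of the AL males. The change from 6 to 24 months differed between the diets at an unadjusted p under 0.05 in 0 of 45 members (0.9% of all features). By the same criteria 0 members were called in the 4 comparisons that involve diet, beside 0.0257%, 0.668% and 0.321% of all features at 6, 16 and 24 months and 0.0643% for the change.

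The juvenile comparisons had the largest differences in median size over the members (0.114 and 0.0845 Z units). Between 17 to 21 and 33 to 44 days, 6 of 45 members were at an unadjusted p under 0.05 beside 13.4% of all features, and 3 met the first criteria of the study beside 4.1%. Between 17 to 21 days and 6 months it was 4 of 45 beside 10.7%, and 2 beside 4.07%. In both, the members' share was near that of the filter. The mice of 17 to 21 days lay in array sets 1 to 4, and those of 33 to 44 days in sets 1, 2, 4 and 5. Age and array set were thus not balanced between these groups and cannot be fully told apart. The genes in front were Tubgcp2, which helps to form the ring from which microtubules grow, and Myo9a. Tubgcp2 read 1.17, 1.11 and 1.16 in the females and 0.18 and 1.32 in the males of 17 to 21 days, against 1.46 and 1.37 in the females and 1.18, 1.19 and 1.5 in the males of 33 to 44 days. The older group was higher by 0.404 ± 0.115 (limma adjusted p = 0.117). Myo9a read 1.30, 1.27 and 1.43 in the younger females and 0.31 and 1.53 in the younger males, against 1.49 and 1.60 in the older females and 1.30, 1.46 and 1.43 in the older males, a difference of 0.344 ± 0.106 (limma adjusted p = 0.140). At 6 months the differences from 17 to 21 days were 0.347 ± 0.0987 for Tubgcp2 and 0.291 ± 0.0908 for Myo9a.

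These differences rested on 1 mouse, a male of 19 days (replicate 1), whose array had the lowest median correlation of those used (0.921). Its Tubgcp2 and Myo9a readings were the lowest of all 63 arrays, and Dctn3 read -0.46 in it against 0.32 to 0.49 in the other mice of that age. Without it the differences from 33 to 44 days were 0.119 for Tubgcp2, 0.0392 for Myo9a and 0.0683 for Dctn3 (0.306 ± 0.111 with it), and those from 6 months were 0.0617 for Tubgcp2 and -0.0137 for Myo9a. That fit left 1 male of 17 to 21 days. Without the other young male (replicate 2), the male of 19 days alone stood for its sex. The differences from 33 to 44 days were then 0.689 for Tubgcp2, 0.649 for Myo9a and 0.543 for Dctn3.

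Kif1c, a kinesin of transport between the Golgi and the endoplasmic reticulum, read -0.27, -0.12 and -0.09 in the females and -0.14 and -0.18 in the males of 17 to 21 days, against -0.33 and -0.51 in the females and -0.35, -0.14 and -0.40 in the males of 33 to 44 days. The older mice were lower by 0.198 ± 0.0717 Z units (limma adjusted p = 0.230), with 1 older male inside the younger range. The difference lay between -0.243 and -0.153 over the omissions of single mice. Over the alternatives, array set as a block among them, it lay between -0.213 and -0.162. Kif1c had its lowest mean in array set 5 (-0.347), which held older but no younger mice of this comparison. Kif22 read 0.69, 0.70 and 0.85 in the youngest females and 1.13 and 0.99 in the youngest males, and its difference at 6 months was -0.156 ± 0.0626 (limma adjusted p = 0.395), or -0.121 without the male of 19 days, which had its highest reading.

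Dctn6 and Dctn2, singled out after their values were seen as Dctn3 was above, had differences of opposite sign. Dctn6 was between 0.26 and 0.50 in the 5 mice of 17 to 21 days and between 0.03 and 0.43 in those of 33 to 44 days, a difference of -0.166 ± 0.0682 (limma adjusted p = 0.289; -0.104 without replicate 3 of the older males), and of -0.136 ± 0.0587 at 6 months. Dctn2 was between 1.68 and 2.07 in the younger and between 1.96 and 2.34 in the older mice, a difference of 0.179 ± 0.0838 (limma adjusted p = 0.354). It was 0.109 without replicate 2 of the youngest males and 0.0765 with quantile normalization. Purkinje cell markers differed in the same comparison, also short of a call: Car8 was higher at 33 to 44 days by 0.307 ± 0.121 and Calb1 differed by -0.171 ± 0.0819, with 2 of the 12 listed markers measured. Without the male of 19 days these were 0.0367 and -0.143. The part of cell makeup in the members' differences was not tested.

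**Figure D5:**
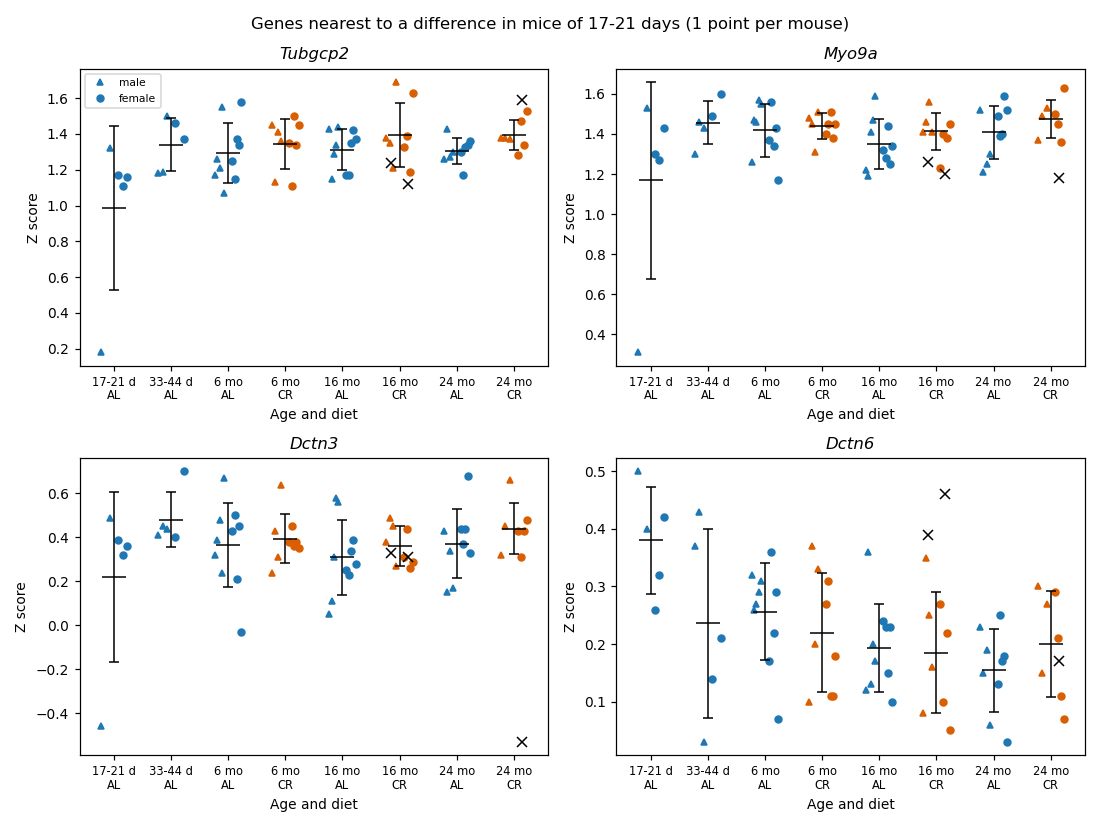
Z score (y axis) of Tubgcp2, Myo9a, Dctn3 and Dctn6 in each mouse by age and diet (x axis; AL in blue, CR in orange; triangles male, circles female; crosses for arrays left out), with the mean and SD of each group. The male of 19 days stands far below the others of its group in the first 3 genes, at 0.18, 0.31 and -0.46, and Dctn6 is highest at 17 to 21 days.

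The partners that work with these genes and are no members showed no call either. Measured were 25 of 74 listed microtubule partners, 33 of 87 actin partners and 17 of 59 cilium partners, and 0 passed an adjusted p under 0.05 in any of the 12 comparisons. Among the actin partners 4 were higher and 0 lower at an unadjusted p under 0.05 at 33 to 44 days against 17 to 21 days, and 5 were higher and 1 lower at 6 months, 12.1% and 18.2% of the list beside the 13.4% and 10.7% of all features. These too depended in part on the male of 19 days, without which 1 male of that age was left. They included Rhoa, the small GTPase that activates Diaph1 (0.352 ± 0.109 and 0.306 ± 0.0941, or 0.202 and 0.156 without that mouse), and Evl, which elongates filaments (0.311 ± 0.136 and 0.416 ± 0.117, or -0.0742 and 0.0307). Of the cilium partners, Cluap1 (0.384 ± 0.161 and 0.290 ± 0.138) was higher and Traf3ip1 (-0.252 ± 0.100 and -0.245 ± 0.0861) lower than at 17 to 21 days, both being subunits of the outward train. Without that mouse Cluap1 stood at 0.204 and 0.110 and Traf3ip1 at -0.0667 and -0.06. In the adult comparisons each list held at most 1 gene at an unadjusted p under 0.05, beside 0.655% to 3.92% of all features. At 24 against 16 months in AL mice, where the share of all features was 3.92%, 1 of 25 microtubule and 1 of 33 actin partners were there. They were Tacc3 of the spindle (-0.186 ± 0.0673) and the tropomyosin Tpm1 (-0.122 ± 0.0552).

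By the correlation of their means over the 8 age and diet groups, the members most like Diaph1 were Ift27 (r = 0.703) and Kif3b (0.572), and those most like Ift122 were Bbs2 (0.694) and Tubg1 (0.672). Ift81 was most like Ift20 (0.770) and Ift46 (0.671), all 3 being subunits of the outward train. The group means of Ift81 spanned only 0.0705 Z units, however, and its probes did not move together. Kif3a was most like Dnah1 (0.686) and Tubg1 (0.553). The 8 points share their arrays between genes, so these are descriptions.

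The tissue label could not be checked here, since levels of different probes are not comparable and the defining markers were mostly unmeasured. The listed markers of granule cells (11), oligodendrocytes (8) and choroid plexus or ependyma (7) had 0 measured genes. Measured were Car8 and Calb1 of the 12 Purkinje cell markers, with mean Z scores of 0.841 and -0.0150.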

How the data were processed

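RNA of each mouse was labelled with radioactive dCTP and hybridized to 1 nylon filter of mouse cDNA clones. The deposited values are scores: the authors quantified phosphor images and computed Z scores per array. A log step and a background correction are not given in the sources. The number of arrays limits the precision. Probes with the same single symbol were averaged, without a filter on signal. Arrays with a median correlation under 0.9 were left out (3 of 66). limma 3.58.1 (R 4.3.3) fitted 1 mean per group of sex, age and diet (16 groups), and contrasts weighted the sexes equally. The 12 comparisons were two-sided, with Benjamini-Hochberg adjustment over 7782 features, and the code was tested on simulated data. Members named were those past the adjusted threshold, up to 3 of smallest p per comparison, the brightest 3 and the lowest of each class, those with several probes, and Ift122, Ift81, Diaph1 and Kif3a. Alternatives were single probes, all arrays, bright features, quantile normalization, array set as a block, array weights and position correction. The last set each array's median at each of the 22 positions to that position's median over the arrays used. Further alternatives were the first criteria of the study and leaving out each mouse. Members, lists and motifs were chosen with earlier results of these data known.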

Additional observations from a re-analysis of the deposited data

Results flagged for a closer look

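In 16 of the named members, each of the 8 age and diet groups was checked for a highest or lowest mouse whose gap to the next, divided by the range of the group, exceeded Dixon's critical value. That value flags about 1 in 20 groups of normal values by chance. It was exceeded in 13 of 128 groups, 3 of them through 1 array, in genes that were not drawn at random. The male of 19 days (replicate 1) stood low in 3 genes, with Tubgcp2 at 0.18, Myo9a at 0.31 and Dctn3 at -0.46. At 33 to 44 days, Dctn3 read 0.70 in replicate 2 of the females and Diaph1 0.95 in replicate 2 of the males. In AL mice of 6 months, replicate 5 of the females stood low in Ift122 (0.27) and in Kif20a (-0.97). In AL mice of 16 months, Diaph1 read 1.63 in replicate 1 of the males, Ift122 read -0.23 in replicate 5 of the females and Ift20 read -1.29 in replicate 1 of the females. In restricted mice, Ift81 read -0.08 in replicate 5 of the males and Kif4 read -1.64 in replicate 5 of the females at 16 months, and Kif3a read 0.25 in replicate 3 of the females at 24 months.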

How the results depend on the processing

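No member passed an adjusted p under 0.05 in the 10 adult comparisons under any alternative that kept this threshold, and the range was 0 to 0 over the omissions of single mice. With the position correction 2 members (Tubgcp2 and Dctn3) passed for 33 to 44 against 17 to 21 days, where 66 of all features did. Over the omissions of single mice, both juvenile comparisons gave 0 to 3 members, the highest without replicate 2 of the youngest males. The first criteria of the study gave 2 members for 24 against 16 months in AL mice, 1 each for 16 against 6 and for 24 against 16 months in restricted mice, 3 for 33 to 44 against 17 to 21 days and 2 for 6 months against 17 to 21 days. The cause of these changes was not tested, beyond the smaller group and the looser rule. The labels number no replicates, so mice were not paired. With the array set as a block, 0 members passed. The partner differences without the male of 19 days were added after the data were seen.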
